A study of Mus musculus with 2 samples.

Results

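The cells described here are the 93 cells that the authors named vascular smooth muscle cells in the abdominal aorta of mice given Lactobacillus casei cell wall extract (LCWE), taken from the deposited table of cells by class and condition. They were 93 of 10477 cells in the series and 93 of the 5091 cells of the LCWE library, 1.83%. The same class held 4141 of the 5386 cells (76.9%) in the library of mice given phosphate-buffered saline (PBS). Both groups were wild-type C57BL/6J mice that received LCWE or PBS into the peritoneum, and the aorta between the left renal artery and its bifurcation was taken 2 weeks later. Age, sex and dose are not given in the sources used here. LCWE, an extract of bacterial cell walls, inflames the arteries of mice and is used to model Kawasaki disease. A droplet library (10x Genomics 3′) was made from 7 pooled LCWE aortas and another from 9 pooled PBS aortas, after enzyme digestion and removal of dead cells. With 1 pooled library per group no test between groups was possible, and differences between treatments, pools and libraries cannot be told apart. All intervals below are exact 95% intervals that cover counting error only.

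Smooth muscle cells form the muscular middle layer of an artery. In their contractile state they are rich in smooth muscle actin (Acta2), smooth muscle myosin (Myh11), calponin (Cnn1) and transgelin (Tagln), and they set the width of the vessel. In injured or inflamed arteries such cells can lose contractile genes and take up genes of matrix building and inflammation, a change called switching, with Spp1 (osteopontin, a secreted matrix protein) and Timp1 (an inhibitor of matrix proteases) among its markers. They can also answer inflammatory cytokines themselves, through the transcription factors NF-kB and STAT3, with chemokines, IL-6, complement and acute phase proteins. In droplet data, RNA set free by other cells is caught in every droplet, so a few molecules of a gene in a cell need not come from that cell. In a tissue full of leukocytes this matters most for leukocyte genes.

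The 93 cells held 873909 molecules (unique molecular identifiers, UMIs), with a median of 8547 per cell and a range of 1986 to 46528. The PBS cells of the class had a median of 11880 UMIs. Mitochondrial genes took a median of 7.94% of the UMIs of the 93 cells, and 32 of them were over 10%. The libraries shared 8 cell barcodes, none of them among the 93. A second LCWE class, labelled by the authors as a transition from smooth muscle to fibroblast, held 283 cells (median 19942 UMIs) and no PBS cell.

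A share of the 93 cells lay apart from the class. On the authors' map of all cells, 74 cells had 15 nearest cells that were all of the smooth muscle class, and these are called placed cells below. The other 19 (20.4%, 12.8 to 30.1) lay elsewhere, and only 3 of the 4141 PBS cells did so. Of the 19, 7 lay nearest to the joint class of T, NK and innate lymphoid cells (lymphocytes below). A further 4 lay nearest to monocytes, macrophages and dendritic cells. Another 4 had a mixed set of neighbours, in which 8 of 15 bore the smooth muscle label. These 4 belonged to the group of 9 described below, and smooth muscle markers took 0% of their UMIs. The last 4 lay nearest to endothelial cells, fibroblasts, other myeloid cells and transitional cells, 1 each. The 10 textbook smooth muscle markers took a median of 4.26% and 6.23% of the UMIs in the 2 stretches of placed cells and 0.0306% in the 19. For 62 leukocyte marker genes the medians were 0.0206%, 0.0215% and 1.47%, so most of the 19 cells carried leukocyte markers and few smooth muscle markers.

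**Figure D1:**
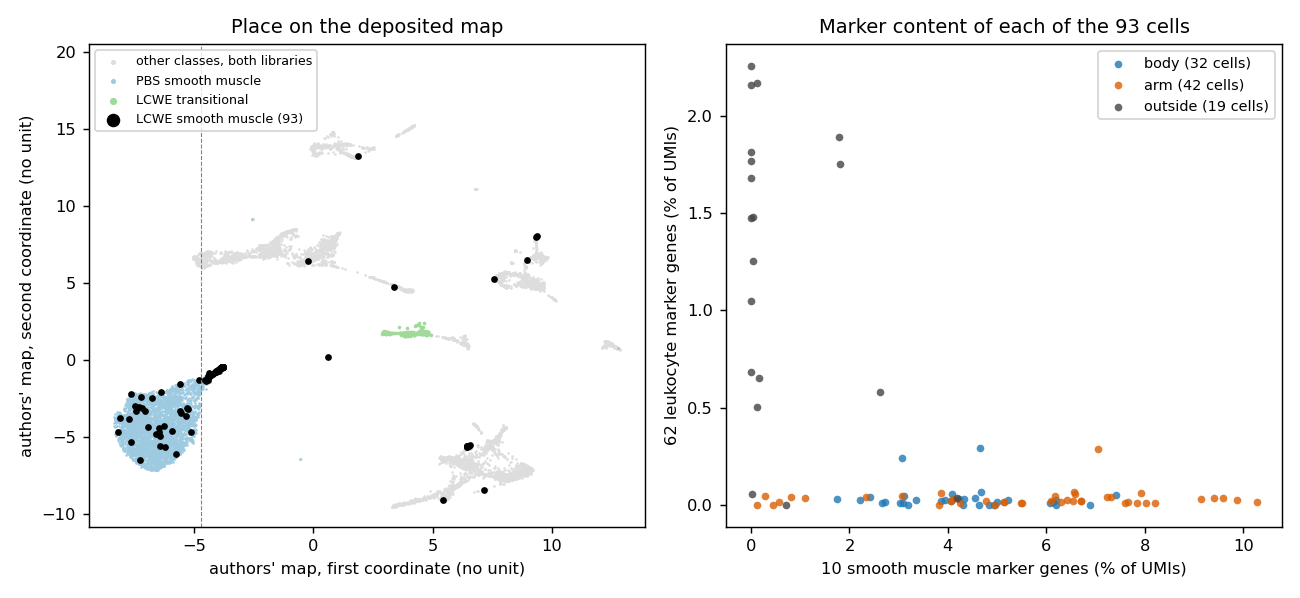
Left, the authors' map (2 coordinates without unit) with other cells in grey, PBS smooth muscle cells in light blue, LCWE transitional cells in green and the 93 LCWE smooth muscle cells in black; the dashed line marks the split of body and arm at -4.7. Right, each of the 93 cells by the percent of its UMIs in 10 smooth muscle marker genes and in 62 leukocyte marker genes; most of the 19 cells outside the class lie at the upper left, with leukocyte markers and few smooth muscle markers.

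A group of 9 of these cells was the clearest case. Their totals ran from 1986 to 4262 UMIs, and of 27586 UMIs together 2 came from the smooth muscle markers. Ptprc, the pan-leukocyte antigen CD45, was present in 9 of 9 with 25 UMIs. Ms4a4b, a membrane protein of T cells, had 144 UMIs in 9 of 9, and Cd3g and Cd3d, chains of the T cell receptor complex, had 29 and 28. The interferon-induced genes Ifit1 and Isg20 had 69 and 34 UMIs. In the 74 placed cells the same genes had 7 (Ptprc), 4 (Ms4a4b), 3 (Cd3g), 1 (Cd3d), 2 (Ifit1) and 1 (Isg20) UMIs. The other 10 cells held high counts of genes of several cell types in a few cells each, such as Mmp3 (a matrix protease) with 199 UMIs in 4 cells, Ccl5 (a chemokine of T and NK cells) with 209 in 4, Lcn2 (lipocalin 2) with 388 in 3 and Ccl22 (a dendritic cell chemokine) with 81 in 2. The group of 9 went against the class name. Among the other 10, some cells also held smooth muscle markers, with 392, 141, 118 and 112 UMIs of Acta2 and 42, 31, 19 and 0 of Myh11. The deposited doublet scores of these cells were 0.159, 0.239, 0.192 and 0.202, against a median of 0.0594 over the 93. Whether they were mixed droplets was not tested. The comparisons with PBS and with the transitional class are given with and without the 19.

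The placed cells fell into 2 stretches of the map, a large body and a narrow arm that leaves it. With the split at -4.7 on the first coordinate, 32 placed LCWE cells lay in the body and 42 in the arm, while 4012 PBS cells lay in the body and 126 in the arm. The arm thus held 56.8% (44.7 to 68.2) of placed LCWE cells and 3.04% (2.54 to 3.61) of placed PBS cells. Close to the line, between -5 and -4.4, lay 1 body and 5 arm cells of the LCWE library and 145 and 62 of the PBS library. The map was made from these same genes, so this is a description. The medians of total UMIs were 10245.5 in the LCWE arm and 8780 in the LCWE body, against 13735 and 11834 in PBS. Mitochondrial genes took medians of 10.4% in the LCWE arm and 9.66% in the PBS arm, and of 6.18% and 7.01% in the bodies.

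Of the 5 markers of this class, the contractile genes marked the placed cells and Spp1 and Timp1 did not. Acta2 (GRCm38 chr19:34241090-34255590) ran from 1 to 601 UMIs per cell in the 42 arm cells, with a median of 273, and from 63 to 570 in the 32 body cells, with a median of 141. Myh11 (chr16:14194535-14291372) ran from 0 to 83 in the arm, median 47, and from 5 to 45 in the body, median 22.5. Every body cell held the 3 contractile markers, and a few arm cells held almost none. Thinned to 1500 UMIs per cell, 97.3% of the placed cells had a UMI of Acta2, 95.9% of Myh11 and 82.4% of Cnn1 (chr9:22099216-22109630). Among lymphocytes of the library, which should lack these genes, the shares were 6.46%, 0.41% and 0.18%. Spp1 (chr5:104435118-104441050), by contrast, was found in 8.11% (3.03 to 16.8) of the placed cells and in 10.1% of lymphocytes and 15.6% of B cells. Timp1 (chrX:20870166-20874735) was found in 6.76% of placed cells, 5.91% of lymphocytes and 6.25% of B cells. The median totals before thinning were 9104.5 UMIs in placed cells, 3986 in lymphocytes and 2818 in B cells. Both thinned shares in placed cells thus lay near those of lymphocytes, while 49.1% of transitional cells had Spp1 and 76.3% had Timp1. Thinning took more from the deeper placed cells, so like thinned shares do not place these genes at the free RNA level. Without thinning, Timp1 was in 41.89% of placed cells, 14.01% of lymphocytes and 10.71% of B cells. For Spp1 these shares were 35.14%, 26.66% and 26.34%. Endothelial cells, with a median of 9201 UMIs, had 48.93% for Timp1 and 35.47% for Spp1. Whether placed cells made either gene was not tested.

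A single cell held most of both genes. The deepest of the 93 cells, with 46528 UMIs, lay among endothelial cells on the map and had 935 of the 1042 Spp1 UMIs (89.7%) and 571 of the 645 Timp1 UMIs (88.5%). It also held 39 of 51 UMIs of the endothelial gene Pecam1 (76.5%), with 16 UMIs of Acta2 and 1 of Myh11. Without thinning, 39.8% of the 93 cells had a UMI of Spp1 and 38.7% of Timp1. Summed over the 93 cells, Spp1 stood at 1192 UMIs per 1000000 UMIs of the cells (CPM) against 0.486 in PBS smooth muscle cells, and over the 74 placed cells it stood at 120 CPM from 86 UMIs. Timp1 stood at 738 CPM over the 93 cells against 8.66 in PBS, and at 64.4 over the 74 cells, 7.43-fold (5.36 to 10.1) above PBS. In the arm, 15 of 42 cells held 69 Spp1 UMIs, with a highest value of 18 and a mean of 1.64 per cell against 0.34 per lymphocyte. In the body the mean was 0.53 per cell. The mean of Spp1 per cell was therefore above that of lymphocytes in both stretches, and a few arm cells held many molecules of it. The thinned share of Spp1 in placed cells was near that of lymphocytes.

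**Figure D2:**
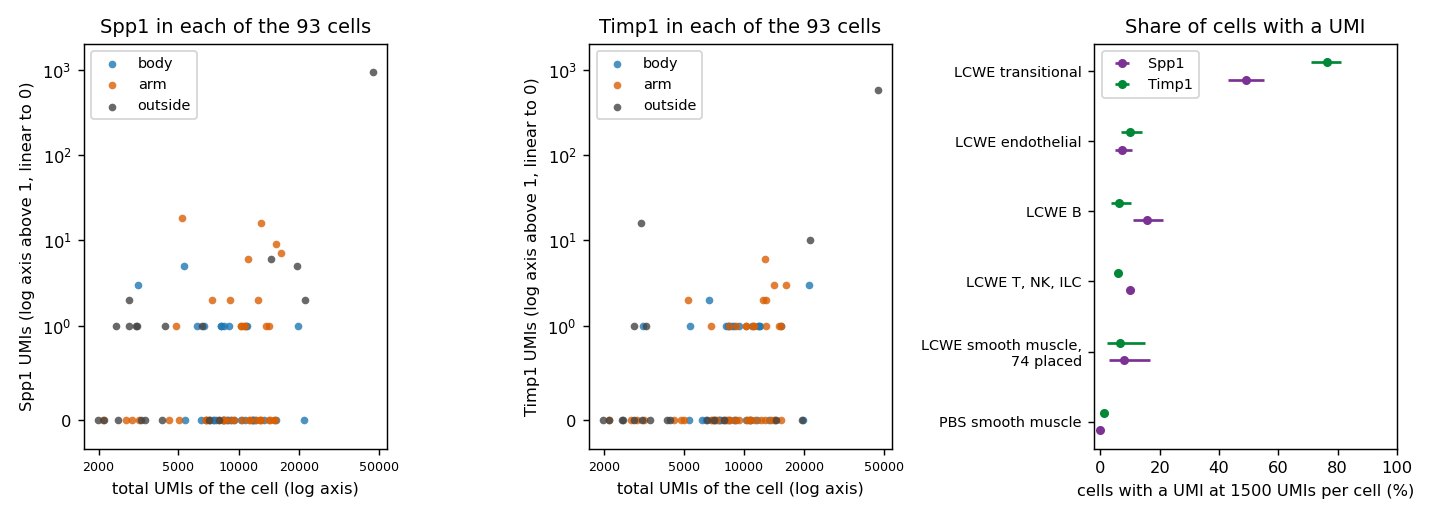
Left and middle, UMIs of Spp1 and Timp1 in each of the 93 cells (y, logarithmic above 1) by the total UMIs of the cell (x, logarithmic), coloured by place on the map; 1 cell outside the class, at 46528 UMIs, holds 935 and 571. Right, percent of cells with a UMI of each gene after thinning to 1500 UMIs per cell, with 95% binomial intervals; placed LCWE cells overlap the lymphocytes, and the transitional cells lie far above them.

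How much leukocyte RNA did these cells carry? For 7 leukocyte marker lists, the UMIs in the 93 cells were divided by those in all other LCWE cells. Dendritic cell markers had the highest ratio, 142.6 (120 to 168) UMIs in the 93 cells per 10000 elsewhere. T cell markers had 46.2, NK cell markers 27.4, neutrophil markers 15.4, monocyte and macrophage markers 15 and B cell markers 3.90. These ratios differed widely between the lists. In the 74 placed cells the ratios ran from 1.95 (B cell) to 5.20 (T cell), and the pooled ratio fell from 27.2 (1749 UMIs) to 3.91 (252 UMIs). Most leukocyte RNA of the class was thus in the 19 cells outside it. Within the placed cells, 8 of 9 dendritic markers were at 0 UMIs and the 7 lists together held 2.11 UMIs per 10000 elsewhere in the arm and 1.80 in the body.

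**Figure D3:**
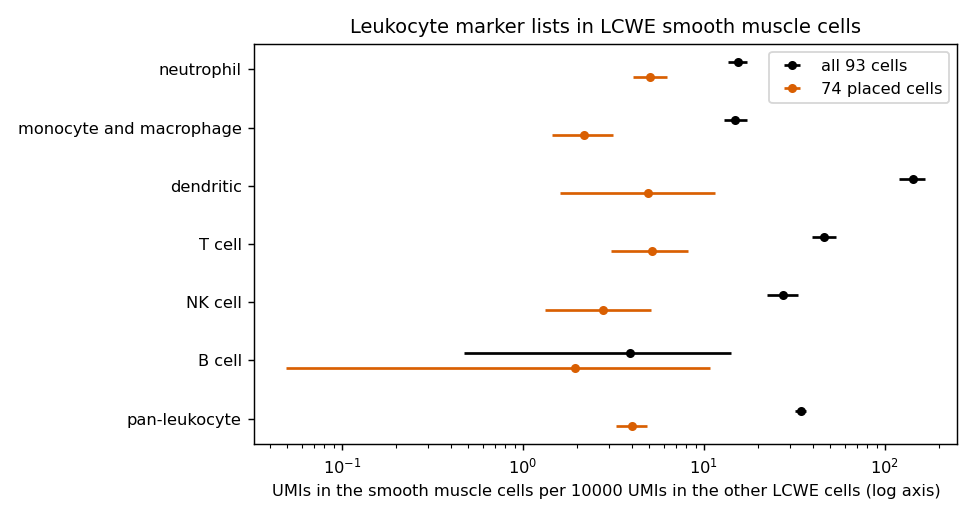
UMIs of 7 leukocyte marker lists in LCWE smooth muscle cells per 10000 UMIs of the same genes in all other LCWE cells (logarithmic axis), with 95% Poisson intervals, for all 93 cells in black and the 74 placed cells in orange. The 93 cells spread from 3.90 to 142.6, and the placed cells lie between 1.95 and 5.20.

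Haemoglobin gave a second measure of free RNA, since it comes from red blood cells. Hbb-bs, a beta globin, stood at 8.52 UMIs per cell in the arm, 8.78 in the body, 9.66 in lymphocytes and 12.1 in B cells. Placed smooth muscle cells thus held about as many molecules of it as lymphocytes did. After thinning, 79.7% of placed LCWE cells and 4.06% of PBS cells of the class had a UMI of it. A gene was counted as higher or lower when its interval lay wholly beyond 1.5-fold and it was measured, with at least 20 UMIs in the LCWE cells or 20 CPM in the PBS cells. The caught level of a gene was the highest of the 7 ratios times its UMIs in all other LCWE cells. A higher gene was counted as above it when the lower bound of its UMIs exceeded that level and its ratio stayed above 1.5-fold after the level was subtracted. The level was drawn from leukocyte lists alone, so it does not cover RNA of cells missing from the library, such as red blood cells.

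Over all 93 cells, 487 of 6210 measured genes (7.84%) were higher than in PBS cells of the class and 137 (2.21%) were lower. Of the higher genes, 137 (2.21% of those measured) lay above the caught level. Over the 74 placed cells, 255 of 5786 genes were higher (4.41%), 95 were lower (1.64%) and 248 (4.29%) were higher and above the caught level. The higher sets shared 229 genes, 47.0% of the first and 89.8% of the second, and 206 of the 487 were no longer measured in the placed cells. The lists of antigen presentation and interferon genes changed with the 19 cells. In the class I list, whose members carry peptides to T cells, 14 of 17 measured genes were higher over 93 cells (median log2 ratio 2.04) and 0 of 7 over 74 cells (median 0.16). B2m, the shared light chain of class I molecules, went from 2.14-fold to 1.03-fold. Of the type I interferon response genes, 15 of 16 were higher over 93 cells and 5 of 6 over 74, and of the interferon gamma response genes 12 of 13 and 1 of 2. The chemokine list went from 10 of 10 genes, 0 of them above the caught level, to 3 of 3, with 2 above it. Genes rare in PBS cells were measured only where LCWE cells held them, so these shares lean towards higher. Over all measured genes the median log2 ratio was -0.00 for 93 cells and -0.05 for 74.

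**Figure D4:**
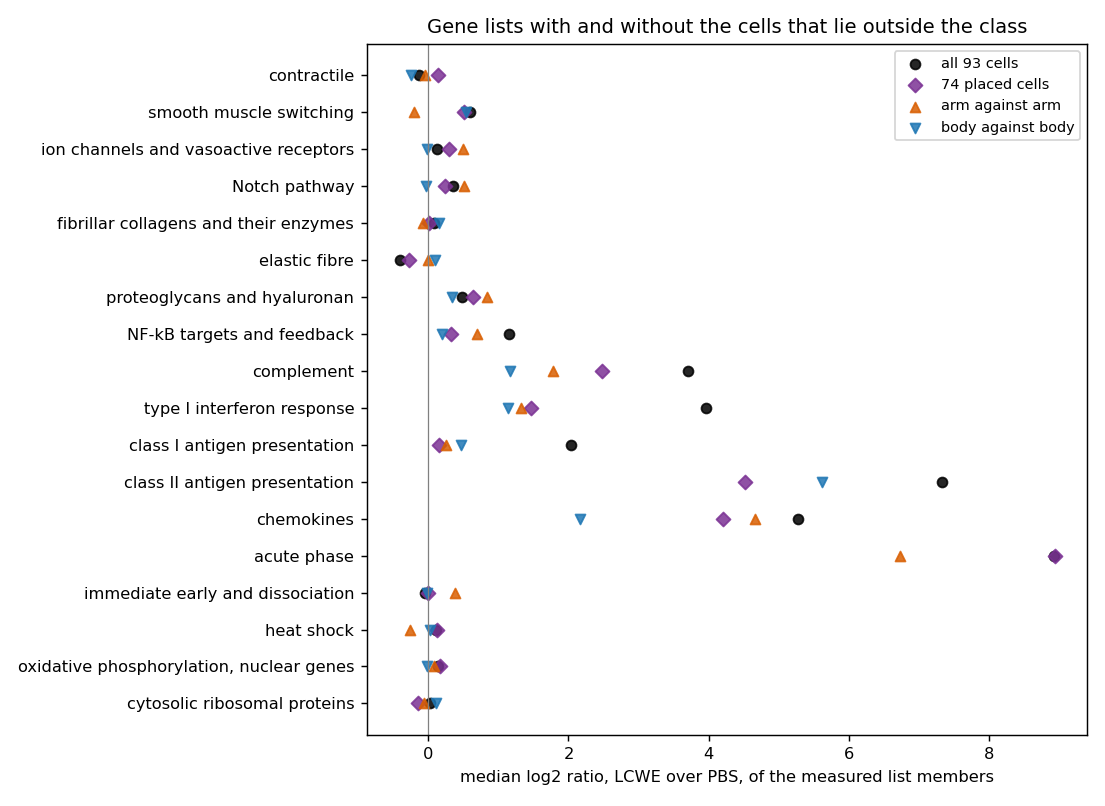
Median log2 ratio of LCWE over PBS smooth muscle cells over the measured members of 18 gene lists, for all 93 cells (black circles), the 74 placed cells (purple diamonds), arm cells against arm cells (orange triangles) and body cells against body cells (blue triangles). Class I antigen presentation moves from 2.04 over 93 cells to 0.16 over 74, and contractile genes stay between -0.24 and 0.13.

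No contractile gene was called lower over the placed cells. Of 24 contractile genes, 23 were measured over the placed cells, 5 were higher, among them Pln and Des, and 0 were lower, with a median log2 ratio of 0.13. Acta2 stood at 0.963 (0.948 to 0.978) of the PBS level, Myh11 at 0.991 (0.952 to 1.03), Cnn1 at 0.964 (0.911 to 1.02) and Tagln at 1.01. These figures mix the stretches, because the arm carries more contractile RNA in both libraries and held more of the LCWE cells. Within the arm, Acta2 stood at 0.846 (0.830 to 0.864) of PBS, Myh11 at 0.886 (0.842 to 0.933) and Cnn1 at 0.70 (0.651 to 0.751). Within the body the same genes stood at 0.747 (0.728 to 0.767), 0.692 (0.644 to 0.744) and 0.729 (0.660 to 0.803). All 6 values lay below 1 and remained there under TMM scaling, which moved them to between 0.638 and 0.824, yet 0 of the 6 met the 1.5-fold limit under either scaling. Without the 6 arm cells of few smooth muscle markers described below, the arm values were 0.895, 0.932 and 0.740. Per cell, Acta2 had medians of 273 and 469.5 UMIs in the LCWE and PBS arms and of 141 and 287.5 in the bodies, with wide overlap of single cells. Medians of UMIs per cell, here and below, are not scaled to depth, and depth was lower in LCWE. The median totals were 10245.5 against 13735 in the arms and 8780 against 11834 in the bodies. Pln (phospholamban, which restrains the calcium pump of the sarcoplasmic reticulum) was the 1 contractile gene called within the arm, and Des (desmin, an intermediate filament) the 1 within the body, where it was lower.

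Because the stretches differed so much in number, arm cells were compared with arm cells and body cells with body cells. The arms were not matched for position: 62 of 126 PBS arm cells lay close to the dividing line, and 5 of 42 LCWE arm cells. The median number of PBS cells among the nearest cells was 3 in the LCWE arm and 13 in the PBS arm. Whether position along the arm had a part in the arm calls below was not tested. In the arm, 187 of 5269 measured genes were higher in LCWE (3.55%), 74 were lower (1.4%), and 183 (3.47%) were higher and above the caught level. In the body, 47 of 5590 were higher (0.841%), 13 were lower (0.233%), and 42 (0.751%) were higher and above the caught level. The body held 32 cells and fewer UMIs than the arm, which limits what could be called there. In both stretches 18 genes were higher, among them the chemokines Cxcl1 and Cxcl12, the complement protease C1ra, the interferon-induced Ifitm3, the plasma protein gene Itih4 and 4 haemoglobin genes. Of the 18 genes, 16 were above the caught level in both, so some haemoglobin genes passed it. A gene above the caught level is thus not cleared of free RNA from every source. Sost, which encodes the Wnt inhibitor sclerostin, and Id2, an inhibitor of helix-loop-helix factors, were lower in both.

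Genes of inflammatory signalling were among those higher in the arm. Of 15 measured NF-kB targets and feedback genes, 7 were higher and 0 lower, with a median log2 ratio of 0.69 against -0.02 over all genes. Cxcl1 (chr5:90891241-90893115), a chemokine for neutrophils, ran from 0 to 39 UMIs per cell in the LCWE arm, in 13 of 42 cells, and from 0 to 3 in the PBS arm, in 8 of 126. Its level was 446 against 7.61 CPM, 58.5-fold (34.0 to 109), and 26.7-fold without the 3 cells that held most of it. Nfkbia, the inhibitor that NF-kB induces against itself, ran from 0 to 36 UMIs with a median of 0.5 in LCWE and from 0 to 16 with a median of 1 in PBS. At 414 against 132 CPM it was 3.13-fold (2.56 to 3.83) higher in sum, while its median per cell was not higher. Nfkbiz, a nuclear partner of NF-kB needed for secondary targets, was 3.82-fold (2.95 to 4.94) higher, with UMIs in 28 of 42 cells. Cebpb, a transcription factor of acute phase genes, ran from 0 to 58 UMIs (median 3.5) against 0 to 34 (median 3) and was 3.12-fold (2.70 to 3.59) higher. Ptgs2, the inducible cyclooxygenase, was 7.15-fold (3.90 to 13.4) higher, but 93.3% of its 30 UMIs lay in 3 cells and the ratio without them was 0.52.

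Il6 and the acute phase genes followed the same pattern of few cells with many molecules. Il6, the cytokine that drives acute phase proteins, had 38 UMIs in 5 of 42 cells, up to 15 in 1 cell, against 4 UMIs in 4 of 126 PBS cells, 43.0-fold (15.5 to 166), and 9.70-fold without its 3 top cells. Serpina3n, a serine protease inhibitor, had 105 UMIs in 16 of 42 cells, up to 25 per cell, and 0 in the PBS arm, a log2 ratio of at least 7.31 against a floor of 3 UMIs over the group. Hp, which encodes the haemoglobin-binding haptoglobin, had 70 UMIs in 11 cells, 78.6% of them in 3 cells, and 0 in the PBS arm, a log2 ratio of at least 6.72. Cp, the copper oxidase ceruloplasmin, had 30 UMIs in 8 cells and was 27.2-fold (10.4 to 89.7) higher. Of Cxcl1, Serpina3n, Hp, Il6, C4b and Cp, at least 1 was found in 32 of 42 LCWE arm cells and 19 of 126 PBS arm cells, and 3 or more in 10 and in 0. These 6 genes were picked after their values were seen, so this contrast with PBS follows from the choice, and cells are not replicates. Osmr, a receptor of the IL-6 family, was 3.84-fold (2.58 to 5.69) higher with a median of 1 UMI against 0, and Stat3, its signal transducer, 2.43-fold (1.83 to 3.21) with UMIs in 31 of 42 cells. By UMIs per cell, 3 of these genes lay above lymphocytes: Cxcl1 stood at 4.31 per arm cell against 0.09, Hp at 1.67 against 0.12 and Serpina3n at 2.5 against 0.03. By thinned shares, Cxcl1 was in 18.9% of placed cells and in 3.18% of lymphocytes, and Serpina3n in 10.8% and 0.86%. Hp was in 8.11% (3.03 to 16.8) and 3.41%, so its interval held the lymphocyte share. In transitional cells the shares of Cxcl1, Hp and Serpina3n were 35.3%, 59.4% and 13.4%. In endothelial cells they were 12.5%, 3.06% and 14.1%.

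The promoters of this group are shown because several of its genes were higher in the arm. Of 10 genes looked up, 8 had an entry in the RefSeq promoter table (GRCm38.p6), which holds 250 bases before and 50 after each start. The 8 were Cebpb, Cp, Cxcl1, Il6, Nfkbia, Ptgs2, Serpina3n and Zfp36l1, whose level is not given here, and Hp and Nfkbiz had no entry. The letters GGGNN followed by TTTCC (NF-kB), TTCNNNGAA (STAT) and TGANTCA (AP-1) were searched on both strands. NF-kB letters were found in 4 of the 8, AP-1 letters in 3 and STAT letters in 0. Among all 32851 promoters of the table the shares were 1.63%, 7.81% and 8.30%. The genes were picked with these data known and include known NF-kB targets such as Nfkbia, so their shares are no test against all promoters. A match is a description of letters, not of binding. The 250 bases before the start are printed 5′ to 3′ along the gene for the 4 genes with NF-kB letters, capitals marking the NF-kB letters and, in Il6, also an AP-1 match. They come from chr5:90890995-90891244 on the plus strand (Cxcl1), chr5:30012864-30013113 on the plus strand (Il6), chr12:55492648-55492897 on the minus strand (Nfkbia) and chr12:104406458-104406707 on the plus strand (Serpina3n).
Cxcl1: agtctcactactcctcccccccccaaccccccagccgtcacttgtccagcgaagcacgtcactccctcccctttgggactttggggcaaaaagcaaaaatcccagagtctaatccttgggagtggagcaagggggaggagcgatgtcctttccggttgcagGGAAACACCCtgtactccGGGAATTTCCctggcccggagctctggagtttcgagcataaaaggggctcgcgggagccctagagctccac
Il6: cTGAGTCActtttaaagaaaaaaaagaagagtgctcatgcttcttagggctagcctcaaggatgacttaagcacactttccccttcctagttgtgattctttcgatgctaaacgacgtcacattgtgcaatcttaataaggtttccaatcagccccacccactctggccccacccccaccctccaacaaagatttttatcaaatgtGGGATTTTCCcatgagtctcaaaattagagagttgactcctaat
Nfkbia: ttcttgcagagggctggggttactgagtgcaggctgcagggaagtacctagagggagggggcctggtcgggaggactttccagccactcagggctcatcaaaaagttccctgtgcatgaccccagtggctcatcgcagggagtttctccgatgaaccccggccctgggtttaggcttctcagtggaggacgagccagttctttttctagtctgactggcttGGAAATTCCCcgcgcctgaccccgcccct
Serpina3n: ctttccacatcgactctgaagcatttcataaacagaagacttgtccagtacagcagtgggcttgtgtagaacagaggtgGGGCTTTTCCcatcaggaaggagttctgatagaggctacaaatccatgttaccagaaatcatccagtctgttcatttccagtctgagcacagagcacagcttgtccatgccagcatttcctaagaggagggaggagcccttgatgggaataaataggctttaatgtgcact

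The first base of the NF-kB match lay at -89 and -71 from the start in Cxcl1, at -44 in Il6, at -29 in Nfkbia and at -171 in Serpina3n. The Cxcl1 and Serpina3n promoters thus belong to the genes that were near or at 0 in PBS arm cells, and the Nfkbia promoter to a gene with UMIs in 80 of the 126.

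Complement genes were also higher. Of 7 measured, 5 were higher in the arm (C1ra, C1s1, C4b, Cd59a and Serping1) and 0 lower, with a median log2 ratio of 1.78. C1s1, a protease of the classical pathway, ran from 0 to 20 UMIs per cell with a median of 3 in the LCWE arm, and from 0 to 9 with a median of 1 in the PBS arm. It was found in 34 of 42 and 71 of 126 cells. At 392 against 76.1 CPM it was 5.14-fold (4.07 to 6.50) higher. C4b, the complement component cleaved by it, had 30 UMIs in 14 cells against 2 in 2 of 126 PBS cells, 67.9-fold (17.2 to 587). Serping1, the inhibitor of these proteases, was found in 39 of 42 cells with a median of 3.5 UMIs against 1 and was 3.45-fold (2.79 to 4.25) higher. In the body 4 of 7 complement genes were higher, with C1ra at 3.48-fold (2.17 to 5.30). C3, the central complement protein, was among them, but its 21 UMIs did not exceed the caught level.

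Interferon-induced genes were fewer once the outside cells were left out. In the arm 3 of 5 measured type I genes were higher. Ifitm3, a membrane protein that blocks virus entry, ran from 0 to 25 UMIs (median 6.5) in 41 of 42 cells against 0 to 26 (median 4), 2.94-fold (2.56 to 3.37). In the body it was 2.29-fold (1.98 to 2.65) higher and found in 32 of 32 cells. Isg15, a ubiquitin-like protein, had 43 UMIs in 13 arm cells, 12.2-fold (6.72 to 23.1). Its thinned share was 10.8% in placed cells and 15.1% in lymphocytes, which can express it themselves, so it cannot be set apart from free RNA here. Of the 7 measured class I genes 0 were higher in the arm, and in the body 1 was, H2-K1 at 2.14-fold (1.69 to 2.66), not counted as above the caught level.

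Some genes of vascular tone and calcium handling were higher in the arm as well. Of 28 measured channels and vasoactive receptors, 4 were higher and 0 lower, with a median log2 ratio of 0.50. Over all genes measured in the arm, 3.55% were higher and 1.4% lower. Ednra and Ednrb, the endothelin receptors, stood 4.06-fold (2.30 to 7.14) and 3.95-fold (2.42 to 6.42) above PBS, Ano1, a calcium-activated chloride channel, 5.28-fold (2.95 to 9.52), and Kcnk3, a potassium leak channel, 2.17-fold (1.54 to 3.01). Without the 6 arm cells of few smooth muscle markers described below, Ednrb stood at 1.23-fold (0.549 to 2.51) and Ednra at 3.81-fold (2.11 to 6.82). Pln (chr10:53337667-53345987) ran from 0 to 31 UMIs (median 2.5) in the LCWE arm and from 0 to 22 (median 0) in the PBS arm, 559 against 85.9 CPM, 6.51-fold (5.29 to 8.02). It had 0 UMIs in the 32 body cells. Olfr558 (chr7:102702215-102712064), an odorant receptor gene, ran from 0 to 8 UMIs (median 2) in 31 of 42 cells against 0 to 7 in 21 of 126, 11.4-fold (7.85 to 16.8). Over all 93 cells the same gene was 159-fold (110 to 232) above PBS cells of the class, most of which lay in the body, where 1 UMI was found in 4012 cells. Ndufa4l2, a mitochondrial protein induced by low oxygen and common in pericytes, had 126 UMIs in 22 cells against 25 in 7 of 126, 22.8-fold (14.8 to 36.6). Hif1a, the oxygen-sensing transcription factor, was 2.05-fold (1.69 to 2.49) higher.

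Notch signalling and growth factor genes gave further calls in the arm. Notch3, the Notch receptor of mural cells, ran from 0 to 13 UMIs (median 2) against 0 to 10 (median 2) and was 2.32-fold (1.88 to 2.86) higher, and its targets Nrarp and Hes1 were 4.15-fold (2.22 to 7.73) and 2.42-fold (1.93 to 3.04) above PBS. These were 3 of the 9 Notch genes measured. Igfbp5, which binds insulin-like growth factors, had a median of 14.5 UMIs per cell against 3 and was 3.67-fold (3.30 to 4.07) higher, with UMIs in 36 of 42 cells. Crispld2, a secreted protein that binds bacterial lipopolysaccharide, had a median of 3 against 1 and a highest cell of 64 against 18, 899 against 105 CPM, 8.56-fold (7.17 to 10.2). Thbs1, the matrix glycoprotein thrombospondin 1, had medians of 10.5 and 4 and was 2.68-fold (2.43 to 2.95) higher. Fabp4, a fatty acid carrier, was 4.28-fold (3.53 to 5.20) higher. Of 23 immediate early genes, which also respond to tissue digestion, 8 were higher (Fosl2, Junb, Ier2, Nr4a1, Nr4a2, Nr4a3, Maff and Errfi1) and 0 lower. Junb, a subunit of AP-1, was 1.92-fold (1.74 to 2.11) higher. Whether handling of the tissue had a part in these results was not tested. Of 18 heat shock genes, Dnajb1 was higher and Hspb1 and Cryab were lower, and 86 of the 164 Dnajb1 UMIs lay in 1 cell.

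Itih4 (chr14:30886476-30902353), which encodes an inter-alpha-trypsin inhibitor chain best known from liver, was higher in both stretches and in most cells of the body. It ran from 0 to 19 UMIs (median 4) in the LCWE body, with UMIs in 30 of 32 cells, and from 0 to 26 (median 1) in the PBS body. The level was 512 against 106 CPM, 4.84-fold (4.11 to 5.67), and 3.92-fold without its 3 top cells. In the arm it was 9.45-fold (6.84 to 13.2) higher, with UMIs in 26 of 42 cells. Free RNA held almost none of it: 37.8% of placed cells had a UMI after thinning, 13.7% of PBS cells of the class, and 0.14% of lymphocytes.

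**Figure D5:**
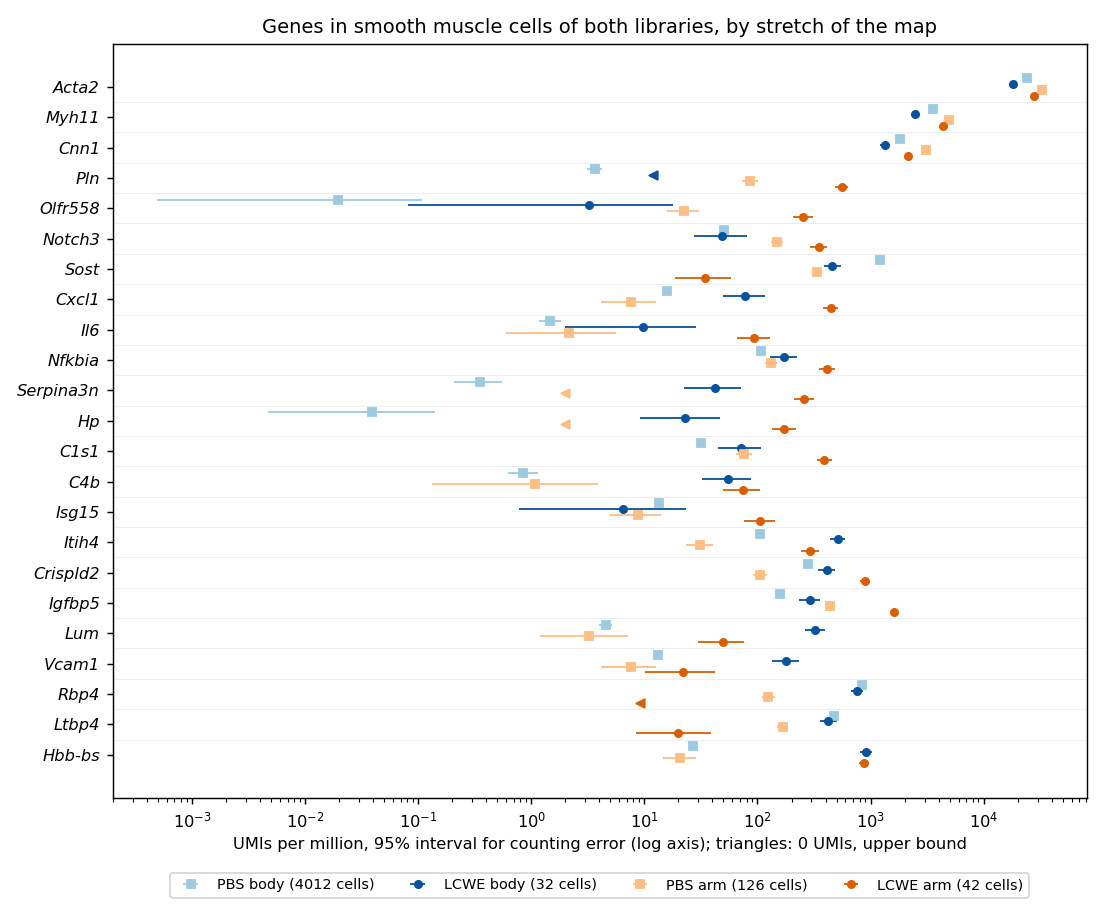
CPM of 23 genes (logarithmic axis) in the body and arm of PBS (squares) and LCWE (circles) smooth muscle cells, with 95% Poisson intervals for counting error; triangles give the upper bound where 0 UMIs were counted. The LCWE arm lies right of the PBS arm for Cxcl1 (446 against 7.61) and left of it for Sost (34.5 against 335), and the haemoglobin gene Hbb-bs lies at like levels in both LCWE stretches.

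Genes of the elastic matrix were among those lower in the arm. Of 13 measured elastic fibre genes, 3 were lower and 2 higher. Ltbp4, which anchors latent TGF-beta to elastic fibres, ran from 0 to 2 UMIs per cell (median 0) in LCWE and from 0 to 12 (median 2) in PBS, 8.47-fold (4.25 to 19.8) lower. Mfap4, a microfibril protein, had 3 UMIs against 171 and was 12.6-fold (4.24 to 61.6) lower, and Fbln5, which guides elastin onto microfibrils, 2.52-fold (1.73 to 3.79) lower. Lox, the enzyme that cross-links elastin and collagen, was 2.00-fold (1.65 to 2.42) higher, and Eln itself, elastin, 1.58-fold (1.5 to 1.65) higher but 1.15-fold without its 3 top cells, with a lower median of 21.5 against 46. Sost (chr11:101962458-101967015) had 14 UMIs in 3 of 42 cells against 616 in 63 of 126, 9.72-fold (5.75 to 17.9) lower. Rbp4, the retinol carrier, had 0 UMIs against 229 in 39 of 126 PBS cells. Ptprz1, a receptor phosphatase, and Ncam1, an adhesion molecule, were 7.11-fold (3.82 to 15) and 6.36-fold (3.41 to 13.4) lower, and Postn, the matrix protein periostin, 3.24-fold (2.53 to 4.21) lower. The cytoskeletal genes Actb, Myh10 and Tmsb4x were lower too, Actb by 1.58-fold (1.53 to 1.64) with medians of 64.5 and 167.5 UMIs.

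Body cells showed genes that fibroblasts also make. Lum (lumican, a collagen-binding proteoglycan) ran from 0 to 22 UMIs (median 1) in LCWE body cells, with UMIs in 17 of 32, and from 0 to 7 (median 0) in PBS, with UMIs in 191 of 4012. It was 71.5-fold (56.0 to 90.7) higher at 324 against 4.54 CPM, and 32.2-fold without its 3 top cells. Dcn (decorin, a related proteoglycan) was 6.94-fold (5.46 to 8.71) higher at 253 against 36.4 CPM. The 12 fibroblast markers together held 19.2 (17.7 to 20.8) UMIs per 10000 in LCWE body cells, 11.8 in PBS body cells, 2.72 in lymphocytes and 312 in LCWE fibroblasts. Fibroblasts of the library had Lum at 1211 and Dcn at 9470 CPM, while transitional cells had 3869 and 2665. The source of the Lum and Dcn RNA in body cells was not tested. Vcam1, the adhesion molecule that holds leukocytes, had 55 UMIs in 12 of 32 cells and was 13.4-fold (9.99 to 17.7) higher. Cxcl12, a chemokine for lymphocytes, had UMIs in 20 of 32 cells and was 4.09-fold (2.97 to 5.49) higher, and Frzb, a secreted Wnt antagonist, was 7.77-fold (5.24 to 11.1) higher. Gsn (gelsolin, which severs actin filaments) and Clu (clusterin, a secreted chaperone) stood 2.00-fold (1.78 to 2.25) and 1.84-fold (1.65 to 2.05) above PBS and were present in 32 and 31 of 32 cells. Mgp, an inhibitor of calcification, was 1.63-fold (1.58 to 1.69) higher at 12065 against 7382 CPM. Sost was lower in the body, 460 against 1202 CPM, 2.61-fold (2.22 to 3.10), as were Des by 2.07-fold (1.61 to 2.70) and Rgs5, a regulator of G protein signalling, by 1.60-fold (1.5 to 1.71). Cd74, the class II invariant chain, was 49.0-fold (33.7 to 69.8) above PBS but at 1.28 UMIs per cell lay below lymphocytes (1.98) and B cells (54.1), and it was not above the caught level.

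Several gene groups had no called member or few. Of the nuclear genes of oxidative phosphorylation 0 of 45 measured over the 93 cells were called, of the cytosolic ribosomal genes 0 of 78, of the ER stress genes 0 of 19 and of the 13 mitochondrial genes 0. Of 13 measured basement membrane genes, 1 was higher and 1 lower over the 93 cells, and again over the 74, while 0 were called in the arm and 0 in the body. Of the smooth muscle switching list, 7 of 23 were higher and 2 lower in the arm and 6 of 20 were higher in the body, with medians of -0.20 and 0.53. Over all measured genes, 7.84% were higher and 2.21% lower in the 93 cells. These shares were 3.55% and 1.4% in the arm and 0.841% and 0.233% in the body. At such shares a short list can lack calls, so its lack of calls says little.

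Some of the arm calls rested on a few cells. Without the 1 cell that held most UMIs of each gene, 139 of the 187 higher genes (74.3%) still had an interval beyond 1.5-fold, and without 3 cells 86 (46.0%). In the body 30 and 18 of 47 did. By UMIs per cell, 170 of the 187 arm genes and 39 of the 47 body genes lay above lymphocytes and B cells. There were 6 arm cells with under 2% of their UMIs in smooth muscle markers (0.126% to 1.09%) and 0 such cells in the PBS arm. Their totals were 2115 to 7359 UMIs, and together they held 255 UMIs of Rgs5, 30 of Pdgfrb (the receptor that marks mural cells) and 38 of the 6 pericyte genes. The 12 pericyte markers, several of which smooth muscle cells also express, held 50.5 (48.3 to 52.7) UMIs per 10000 in the LCWE arm and 52.5 (51.4 to 53.5) in the PBS arm, with 0 of 12 at 0 UMIs in either. The 6 more selective pericyte genes, however, moved with the arm: they held 90 UMIs in the LCWE arm and 169 in the PBS arm, 2.22 against 0.919 per 10000, 2.41-fold (1.85 to 3.13), and 1.48-fold (1.06 to 2.03) without the 6 cells. At least 2 UMIs of them were found in 19 of 42 LCWE arm cells (45.2%) and 36 of 126 PBS arm cells (28.6%). With all such cells left out of both arms, 23 and 90 cells remained and 125 genes were higher, 110 of them among the 187. Of those 187, 148 were still measured. Cxcl1 was then 50.2-fold (26.9 to 104) above PBS, Pln 6.68-fold (5.14 to 8.68) and C1s1 5.59-fold (4.13 to 7.58), while Isg15, C4b, Cp, Ednra and Cxcl12 fell under the minimum and Ednrb stood at 1.05-fold (0.315 to 2.78). Beyond this, the part of pericyte RNA in the arm calls was not tested. Without the 6 cells of few smooth muscle markers, 161 genes were higher in the arm, 156 of them the same genes. Cxcl1 was then 52.5-fold (30.4 to 98.4) above PBS, Notch3 1.98-fold (1.57 to 2.47), and Ednrb 1.23-fold (0.549 to 2.51), so that its call was lost. Cp, at 13 UMIs, fell under the minimum.

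Ren1 was found in a few arm cells at high count. Renin, the enzyme that starts the angiotensin cascade, is known from cells of the kidney arterioles, and Ren1 (chr1:133350510-133360325) was looked at after its values were seen. It had 63, 40, 28 and 1 UMIs in 4 arm cells, with 51 to 76 UMIs of Myh11 and 287 to 548 of Acta2 in the same cells. The PBS library had 0 UMIs, and 10 other LCWE cells had 22.

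The LCWE smooth muscle cells differed from the transitional class of the same library in both directions. Among genes with at least 20 UMIs in either class, 803 of 10520 were higher in the 93 cells (7.63%) and 536 lower (5.1%). With the 74 placed cells alone, 749 of 10503 were higher (7.13%) and 711 lower (6.77%). The balance depended on scaling, since with TMM scaling, which moved the median by -0.20 on the log2 scale, 603 were higher and 764 lower. Myh11 was 8.16-fold (7.71 to 8.65) and Acta2 2.72-fold higher, with 369 and 7413 CPM in transitional cells, while Cnn1 was 4.67-fold and Tagln 4.11-fold higher. Over the placed cells these values were 9.63-fold, 3.17-fold, 5.46-fold and 4.79-fold. Further from them stood Pln at 302-fold and Sparcl1, a matrix protein of quiescent vessels, at 92.8-fold (78.2 to 111), and Olfr558 at 45.1-fold (26.6 to 81.7). Lower in the smooth muscle cells were Acan, the cartilage proteoglycan aggrecan, by 30.8-fold (13.1 to 95), Fbln2, a fibulin of remodelling matrix, by 28.7-fold, and Snai1, a transcription factor of mesenchymal change, by 17.5-fold (5.93 to 85.1) from 3 UMIs. Over the placed cells Acan was 25.2-fold (10.8 to 77.7) and Fbln2 53.6-fold (26.0 to 133) lower. Cxcl5, a neutrophil chemokine, had 1 UMI in the 93 cells, in the deepest one, and 0 in the placed cells, at least 20.3-fold lower there against the floor of 3 UMIs. Lum was 18.9-fold lower over the 93 cells and 23-fold (19.3 to 27.8) over the 74, and Dcn 5.71-fold and 15.1-fold (12.7 to 18.2). For Spp1 the 19 cells mattered more: it was 6.89-fold lower over the 93 cells and 68.3-fold (55.3 to 85.4) over the 74. Timp1 was 6.12-fold and 70.2-fold (52.6 to 95.9) lower. The inflammatory genes named for the arm were not particular to the smooth muscle cells. By thinned shares, Cxcl1, Hp, Il6 and Serpina3n were in 35.3%, 59.4%, 8.48% and 13.4% of transitional cells. In placed cells these shares were 18.9%, 8.11%, 5.41% and 10.8%.

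Among the 93 cells, genes differed in how unevenly they were spread beyond what depth gives. The index of dispersion, which is near 1 where only counting error acts, was highest for Spp1 (161), Ccl5 (125), Malat1 (107), Mgp (101) and Timp1 (97.6). In Spp1, Timp1 and Lcn2 (69.1) 1 cell held 89.7%, 88.5% and 94.3% of the UMIs, and in Ccl5 and Cd74 (62.8) 55.5% and 56.7%. Mgp and Acta2 (72.8) had no such cell, and both differed between the stretches, with Mgp at 12065 CPM in the body and 2051 in the arm. Hspb1 (77.8), a small heat shock protein, ran from 0 to 327 UMIs in the arm. Spp1, Timp1 and Lcn2 were thus uneven through single cells outside the class, and Mgp and Acta2 were uneven between the stretches.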

How the data were processed

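Per the labels' protocols, aortas were pooled within each group before digestion, and 3′ V3 droplet libraries were made. Cell Ranger 3.0.2 and the mm10 genome are named in the submitters' processing notes. The authors deposited whole-number UMI counts for each gene in each cell, not normalized. The authors also deposited, per cell, the percent of its UMIs from 13 mitochondrial genes. The counts gave the same percent in 10477 of 10477 cells. They deposited a doublet score from a caller not given in the sources used here, which entered no filter, and their calls of dead cells and doublets were negative for all listed cells. Classes and the map are those of the authors.

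For each group of cells, the UMIs of a gene were added up and scaled to the group's total (CPM). Sums carry exact Poisson intervals and ratios exact conditional binomial (Clopper-Pearson) intervals at 95%, for counting error only. PCR copies were removed through the molecular identifiers. Genes were called as given in the report, with a floor of 3 UMIs over the group. The 38 gene lists, the members and the rules were chosen with earlier results of these data known, and 13 listed genes were not matched and are not analysed here. Named genes were the 15 highest and 15 lowest ratios to PBS with at least 50 UMIs (CPM for the lower ones), a UMI in 10% of cells and no cell over 20%, the 10 each way against the transitional class, the 15 of highest dispersion and up to 4 members per list. Of these a part is given, picked after their values were seen, and so were the comparisons of placed, arm and body cells and the genes these added. TMM factors came from edgeR 4.0.16 and size factors from DESeq2 1.42.0 in R 4.3.3, as alternatives only. The rest was computed in Python 3.11.15 with numpy 2.4.6, scipy 1.17.1, pandas 2.3.3 and scikit-learn 1.9.0, and was tested on simulated data. Gene positions come from GENCODE (GRCm38).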

Additional observations from a re-analysis of the deposited data

How the results depend on the processing

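No paired analysis was possible because each group is 1 library with no replicate numbers. The 487 genes higher than PBS over the 93 cells became 1600 with no minimum, 280 at 3-fold, 305 in cells of at most 10% mitochondrial UMIs, 277 in cells under 0.1% leukocyte markers, 255 in placed cells, 187 in the arm and 47 in the body. The 137 lower genes became 42 at 2-fold, 2 at 3-fold, 64 by the mitochondrial limit, 236 with equal weight per cell, 74 in the arm and 13 in the body. The 137 above the caught level became 317 with no minimum, 73 at 3-fold, 273 under 0.1% leukocyte markers, 75 without cells holding pericyte genes, 210 with equal weight, 248 in placed cells, 42 in the body and 424 with the pooled caught ratio. Against the transitional class, the 803 higher genes became 453 at 2-fold, 253 at 3-fold and 1302 with equal weight, and the 536 lower ones 279, 119 and 1312, with 603 and 764 under TMM. The caught ratio of 142.6 became 49.16, 3.904 and 5.202 by the mitochondrial limit, the leukocyte limit and in placed cells. The arm count of 187 became 86 without 3 cells per gene, and the body count of 47 became 30 and 18 without 1 and 3. TMM gave 443 higher and 198 lower over the 93 cells, a shift of -0.11 on the log2 scale, and it moved 0 of 38 list medians by 0.5 or more. Among called genes and list medians beyond 1.5-fold, 3 turned sign: the switching list at a median of -0.20 in the arm, and 1810011O10Rik (-0.0575) and Isg15 (-0.48) in the body. In all, 23 of 38 list medians turned sign under at least 1 alternative (coagulation from 0.43 to -0.26 and the IL-6 family from 0.52 to -0.05 by the mitochondrial limit, elastic fibre from -0.41 to 0.10 in the body). The alternatives by stretch, by placed cells, without the deepest cell, without the 6 arm cells and without arm cells holding pericyte genes were chosen after the data were seen. Depth limits rare genes: the body held 32 cells, and a gene with 0 UMIs was compared with the floor.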
